A study of Mus musculus with 48 samples.

Results

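The 4 genes Akr1c13, Akr1c18, Akr1c19 and Akr1c21 code for steroid reductases of the aldo-keto reductase 1C family, and their mRNA was measured in mouse kidney on a pair of Affymetrix chips, 430A and 430B. They are 4 of the 18193 genes that the platform annotation names alone on a probe set, a group of short probes for 1 transcript. All probe sets carrying 1 of these symbols alone were taken: there were 4 among 45037, 1 for each gene, and all 4 passed the filter on low signals that 27926 probe sets passed. The filter kept probe sets above the array's median signal on at least 3 of 24 arrays. Akr1c13 (1418672_at), Akr1c18 (1419136_at) and Akr1c21 (1451030_at) are on the 430A chip, and Akr1c19 (1455454_at) is on the 430B chip. Another probe set, 1450455_s_at, carries the names Akr1c12 and Akr1c13 together and is described apart as the shared probe set.

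The study crossed sex, genotype and dietary phosphate. In Hyp mice the X-linked gene Phex is mutated, which makes them a model of X-linked hypophosphatemia, in which the kidney wastes phosphate. Hyp males were hemizygous (Hyp/Y), Hyp females were heterozygous (Hyp/+), and normal littermates of each sex were the controls. The sex comparison within Hyp mice therefore also sets hemizygous against heterozygous animals. Mice were 10 weeks old when they went for 3 days onto a low phosphate diet (Teklad TD86128) or a control diet (TD86129), all with deionized water, and 1 sample label gives the strain as C57BL/6J. The 8 groups were Hyp males on low phosphate, Hyp males on control diet, normal males on low phosphate, normal males on control diet, and the same 4 groups of females. Each group held 3 pools of whole kidney RNA from 3 mice each, in all 24 pools from 72 mice, and each pool was run on both chips. The tests measure the spread between such pools, not between single mice.

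Aldo-keto reductases of the 1C family are cytosolic enzymes that use nicotinamide cofactors to interconvert keto and hydroxyl groups on steroids and other carbonyl compounds, and so set how much active hormone a cell holds. In the mouse, Akr1c18 is the enzyme that inactivates progesterone by reducing it, best known from the regressing corpus luteum, and Akr1c21 is the kidney hydroxysteroid dehydrogenase that forms epitestosterone. Akr1c13 is a close copy of Akr1c12. The mouse kidney is a tissue with strong sex differences, which lie largely in the proximal tubule and depend in good part on androgens.

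In the RefSeq annotation of build GRCm38.p6 the genes stand side by side on chromosome 13, in the order Akr1c14, Akr1c18, Akr1c13, Akr1c19, Akr1c12, Akr1c6, Akr1c20 and Akr1c21, with no other protein-coding gene between them. The start regions of the members are shown because these neighbours differed in direction between the sexes. Each sequence below runs 5′ to 3′ along the gene's own strand, and holds the 250 bases before the annotated transcript start and the 50 after it. They lie at chr13:4190937-4191236 on the plus strand for Akr1c13, chr13:4150597-4150896 on the minus strand for Akr1c18, chr13:4233490-4233789 on the plus strand for Akr1c19 and chr13:4573825-4574124 on the plus strand for Akr1c21. Capitals mark every match to the hexamer CATTAG on either strand, a repeat that was picked after the sequences had been read.
Akr1c13: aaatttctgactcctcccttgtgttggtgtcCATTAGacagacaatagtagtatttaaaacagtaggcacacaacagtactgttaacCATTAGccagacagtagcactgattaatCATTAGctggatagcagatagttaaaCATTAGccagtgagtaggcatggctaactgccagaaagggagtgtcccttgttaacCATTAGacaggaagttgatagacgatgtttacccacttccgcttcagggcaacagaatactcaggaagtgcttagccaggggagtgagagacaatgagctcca
Akr1c18: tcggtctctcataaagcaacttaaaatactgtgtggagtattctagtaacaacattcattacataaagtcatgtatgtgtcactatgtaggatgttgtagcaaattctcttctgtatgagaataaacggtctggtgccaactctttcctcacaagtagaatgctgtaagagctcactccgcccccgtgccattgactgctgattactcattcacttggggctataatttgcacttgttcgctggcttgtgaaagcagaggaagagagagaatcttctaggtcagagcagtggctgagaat
Akr1c19: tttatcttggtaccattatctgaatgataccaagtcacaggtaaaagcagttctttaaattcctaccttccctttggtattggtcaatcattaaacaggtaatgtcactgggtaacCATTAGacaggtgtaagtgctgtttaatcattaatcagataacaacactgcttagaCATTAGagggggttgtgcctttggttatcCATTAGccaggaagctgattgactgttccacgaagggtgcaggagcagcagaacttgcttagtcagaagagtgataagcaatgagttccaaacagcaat
Akr1c21: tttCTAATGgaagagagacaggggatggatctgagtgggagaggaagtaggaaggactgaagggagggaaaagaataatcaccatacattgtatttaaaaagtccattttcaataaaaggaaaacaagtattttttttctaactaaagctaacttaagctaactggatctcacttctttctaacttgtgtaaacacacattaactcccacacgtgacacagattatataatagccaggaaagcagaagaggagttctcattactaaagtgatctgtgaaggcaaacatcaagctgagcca

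The hexamer occurred 5 times in the Akr1c13 window, 3 times in that of Akr1c19, 1 time on the opposite strand in that of Akr1c21 and 0 times in that of Akr1c18. At least 1 match was present in 7.36% of 32851 RefSeq promoter windows of the same length. At least 3 matches were present in 9 windows (0.0274%), and 3 of these 9 belonged to Akr1c13, Akr1c12 with 4 matches, and Akr1c19. The matches of Akr1c13 began 219, 163, 135, 109 and 53 bases before the start, and those of Akr1c19 began 134, 78 and 49 bases before it. The windows of Akr1c13 and Akr1c12 were 95.9% identical over 296 aligned bases. The Akr1c13 and Akr1c19 windows were 66.0% identical over 282 aligned bases, while the other pairs of members ranged from 51.1% for Akr1c13 with Akr1c18 to 58.6% for Akr1c19 with Akr1c21. Akr1c18 and Akr1c19, the pair that was lower in males, were 52.3% identical in this window.

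Known motifs were also searched on both strands. The androgen receptor half-site AGAACA, which is also contained in the full palindrome, had no match in the 4 windows and was present in 19.0% of all windows. The full palindromic androgen response element had none either and was present in 0.00913%. The STAT motif TTCNNNGAA matched 1 time in the Akr1c19 window (8.30% of all windows), as did the antioxidant response element TGACNNNGC (12.4%). The HNF1 half-site GTTAAT matched 1 time in the Akr1c21 window (7.10%), and TATAAA matched in none of the 4 (13.6%). These are matches of letters in short windows and say nothing of binding.

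Array medians ran from 164.65 to 211.2 on the 430A chip and from 50.9 to 68.3 on the 430B chip. Across probe sets, replicate pools correlated with r from 0.932 to 0.950 on 430A, and from 0.826 to 0.868 on 430B. Of 8 kidney genes listed, such as Umod, Aqp2 and Slc34a1, 7 had a named probe set and all 7 were above the median on all arrays. Akr1c18, Akr1c19 and Akr1c21 were above their array's median on all 24 arrays, and Akr1c13 on 16 of 24, so its values lie near the middle of the array. Signals of different probe sets are not on a common scale, and only differences within a probe set are compared between genes.

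Sex was the factor on which the 4 paralogs differed most. Akr1c18 was 8.85-fold lower and Akr1c19 2.36-fold lower in males than in females, whereas Akr1c21 was 1.36-fold higher and Akr1c13 1.29-fold higher in males. All 4 probe sets passed the test, a limma fit on log2 signals with Benjamini-Hochberg adjustment over all 27926 probe sets and a threshold of 0.05, and 14.6% of those probe sets passed it (5.96% higher and 8.67% lower in males).

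Akr1c18, the progesterone-inactivating enzyme, ran from 309.0 to 532.2 signal units in the 12 male pools, with a median of 384.45, and from 2020.2 to 4885.5 in the 12 female pools, with a median of 3658.8. Every male pool was below every female pool. The sexes did not overlap, in either direction, for 1.73% of the probe sets tested. On the log2 scale the male minus female difference was -3.15 ± 0.11 (SE, 12 pools each, limma adjusted p = 6.62e-15). The means were 385 ± 59.2 units in males and 3528 ± 1028 units in females (SD, n = 12 pools each). Whole kidney RNA cannot tell fewer cells that express a gene from less of its mRNA per cell.

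Within strata the Akr1c18 pools were as far apart. Hyp males on low phosphate had 382.2, 309.0 and 373.4 units, against 3575.5, 3636.4 and 2021.0 in Hyp females on low phosphate. Hyp males on control diet had 338.1, 329.3 and 333.4 units, against 2140.9, 2020.2 and 3760.4 in Hyp females on control diet. The Hyp females were scattered: 1 pool on low phosphate and 2 on control diet lay between 2020.2 and 2140.9 units and the others between 3575.5 and 3760.4, and the SDs were 916 and 972 units. Normal males on low phosphate had 532.2, 399.2 and 386.7 units, against 4530.3, 4885.5 and 4810.9 in normal females on low phosphate. Normal males on control diet had 416.0, 391.3 and 427.1 units, against 3115.2, 3681.2 and 4162.2 in normal females on control diet. Male minus female differences were -3.07, -2.93, -3.45 and -3.14 on the log2 scale in these 4 strata in that order, each ± 0.22 (SE), and all 4 passed (limma adjusted p between 8.40e-10 and 1.35e-08). Of all probe sets, 2.87%, 2.85%, 3.26% and 3.66% passed in these strata.

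Akr1c19 moved the same way to a smaller extent. The 12 male pools ran from 312.3 to 654.8 units with a median of 500.05, and the 12 female pools from 946.3 to 1489.7 with a median of 1118.45. Here too the ranges did not overlap. The log2 difference was -1.24 ± 0.09 (SE, limma adjusted p = 7.23e-09).

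By group, Akr1c19 had 513.0, 517.9 and 487.1 units in Hyp males on low phosphate, against 1469.2, 1290.4 and 1489.7 in Hyp females on low phosphate. Hyp males on control diet had 654.8, 603.9 and 577.1 units, against 1149.1, 1111.2 and 1217.0 in Hyp females on control diet. By the group means the gap in Hyp mice was wider on low phosphate, where males were lower and females higher. Normal females did not share this, with means of 989 units on low phosphate and 1025 on control diet. Diet by sex over both genotypes was -0.37 ± 0.18 and did not pass (limma adjusted p = 0.917). Normal males on low phosphate had 470.9, 378.0 and 312.3 units, against 972.2, 1005.8 and 990.4 in normal females on low phosphate. Normal males on control diet had 458.8, 595.6 and 333.0 units, against 1125.7, 1003.4 and 946.3 in normal females on control diet. Of the 8 groups, normal males on control diet had the largest SD, 131 units. All 4 strata passed, with log2 differences of -1.48, -0.92, -1.37 and -1.18 in this order, each ± 0.18 (SE, limma adjusted p at most 0.00578).

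Akr1c21, the epitestosterone-forming enzyme, gave high signals on every array, between 10303.5 and 21133.2 units, where the highest signal of any probe set on a 430A array was between 30302.6 and 47504.4. Male pools ran from 15155.7 to 21133.2 units with a median of 17412.6, and female pools from 10303.5 to 16341.6 with a median of 12861.8. The ranges overlapped through 1 female pool, of normal mice on control diet at 16341.6 units, which lay above 2 Hyp male pools at 15155.7 and 16283.0. The log2 difference was 0.45 ± 0.06 (SE, limma adjusted p = 6.64e-06). Hyp males on low phosphate had 16283.0, 17301.9 and 19326.4 units, against 10303.5, 12864.1 and 12611.2 in Hyp females on low phosphate. Hyp males on control diet had 16858.2, 15155.7 and 16629.1 units, against 11924.0, 11449.1 and 12859.5 in Hyp females on control diet. In both diets each Hyp male pool was above each Hyp female pool, and the share of all probe sets with such an order was not counted. Normal males on low phosphate had 17523.2, 18545.3 and 17559.3 units, against 13273.0, 12566.7 and 13142.2 in normal females on low phosphate. Normal males on control diet had 17022.3, 17887.1 and 21133.2 units, against 13977.7, 14271.6 and 16341.6 in normal females on control diet. The sexes lay apart in these strata too, an order whose share of all probe sets was likewise not counted. They lay nearest on control diet, where the highest female pool came close to the lowest male pool. The log2 difference was 0.57 in Hyp mice on low phosphate, 0.43 in Hyp mice on control diet, 0.46 in normal mice on low phosphate and 0.33 in normal mice on control diet. The first 3 of these passed (limma adjusted p = 0.00516, 0.0417 and 0.0224) and the last did not (0.134). Leaving out single pools ended the call in Hyp mice on control diet for 15 of 24 pools (0.39 to 0.47) and in normal mice on low phosphate for 6 of 24 (0.43 to 0.48). The call in Hyp mice on control diet was also lost with arrays scaled to a common median (0.41, limma adjusted p = 0.185) and with no filter on low signals (0.0843).

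Akr1c13 had the smallest sex difference of the 4. Male pools ran from 151.2 to 372.2 units with a median of 235.65, and female pools from 117.9 to 309.6 with a median of 181.95, so the ranges overlapped widely. The log2 difference was 0.37 ± 0.09 (SE, limma adjusted p = 0.00878). No single stratum passed: the values were 0.60 in Hyp mice on low phosphate, 0.60 in Hyp mice on control diet, 0.33 in normal mice on low phosphate and -0.06 in normal mice on control diet, each ± 0.18 (SE, limma adjusted p between 0.0924 and 0.938). The last of these was above 0 under both other scalings (0.05 and 0.06).

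**Figure D1:**
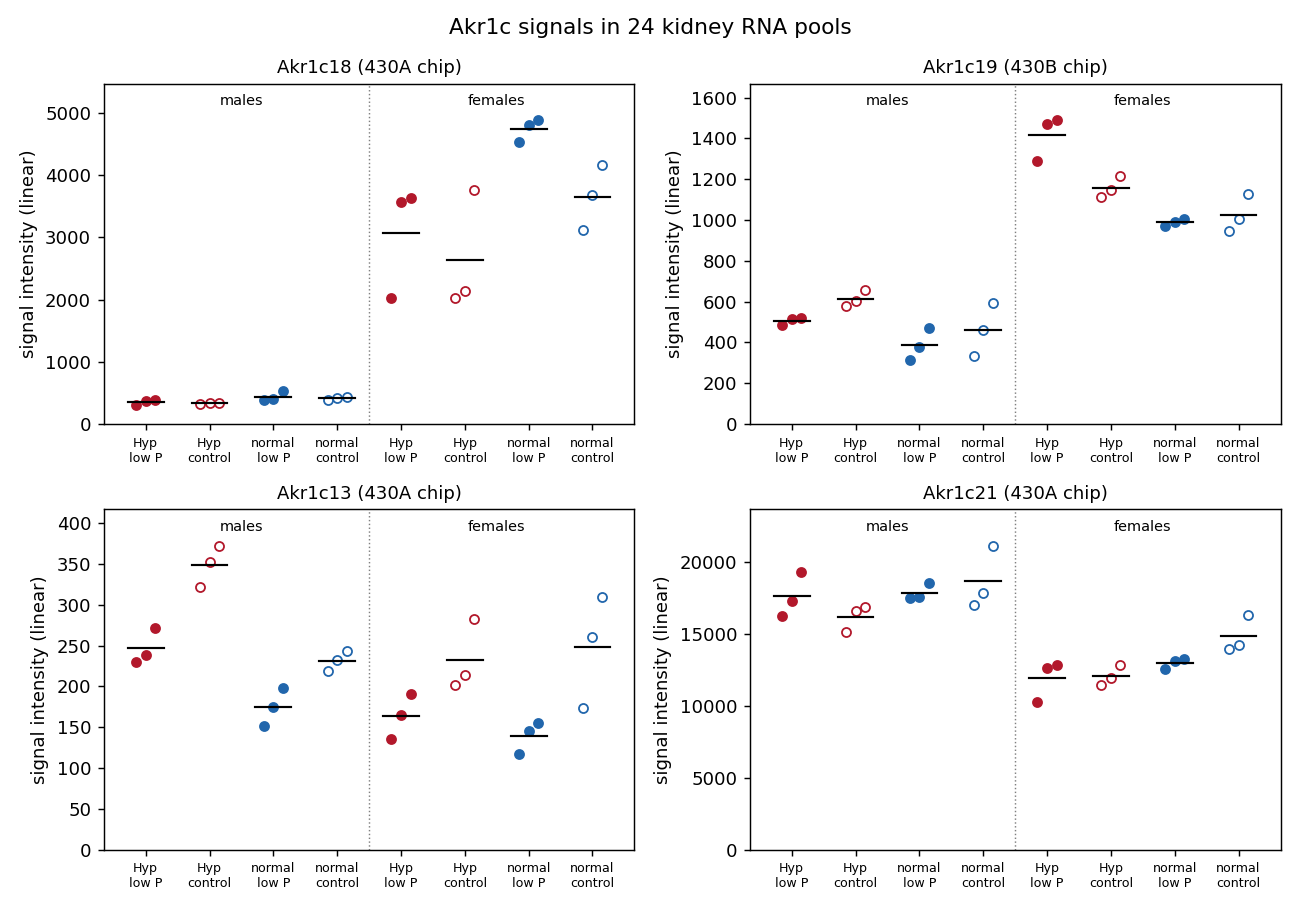
Signal intensity (linear, from 0) of each member in the 24 kidney RNA pools, by group; each circle is 1 pool of 3 mice, filled for low phosphate and open for control diet, red for Hyp and blue for normal, and bars are means of 3 pools. Akr1c18 and Akr1c19 lie lower in every male pool than in any female pool, while Akr1c21 and Akr1c13 overlap between the sexes.

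**Figure D2:**
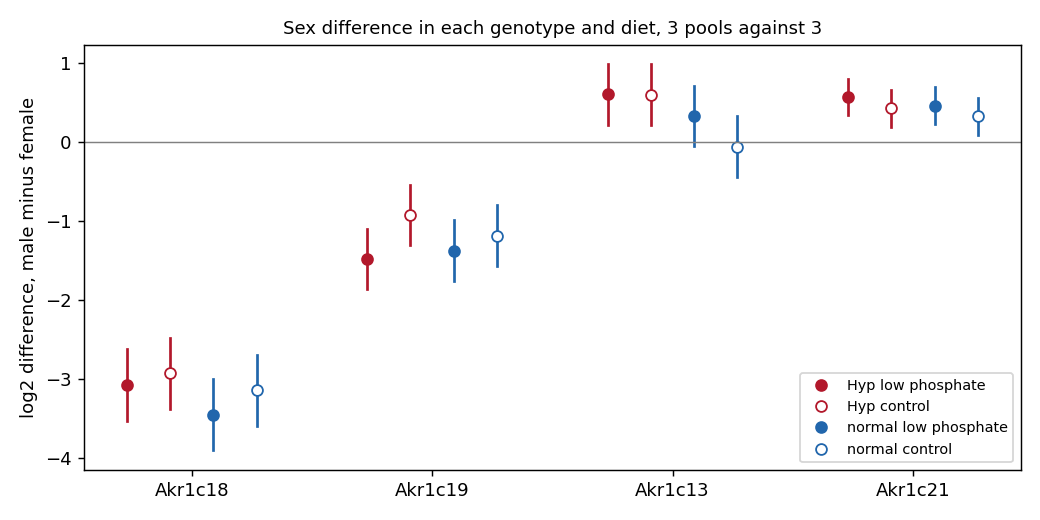
Male minus female difference in log2 signal in each genotype and diet, 3 pools against 3, with 95% confidence intervals from the limma fit. Akr1c18 lies between -3.45 and -2.93 and Akr1c19 between -1.48 and -0.92, whereas Akr1c21 lies above 0 throughout and Akr1c13 lies between -0.06 and 0.60.

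The paralogs were set against each other in 18 comparisons, 6 pairs by 3 factors, with a two-sided exact permutation test within strata and Benjamini-Hochberg adjustment over the 18. The test takes the difference of 2 genes' log2 signals in each pool, and of the 18 comparisons 13 passed. For sex, 5 of 6 pairs passed at the smallest p the 160000 arrangements allow (1.25e-05, adjusted p = 4.50e-05). The sex effect of Akr1c18 was below that of Akr1c21 by 3.59 on the log2 scale, below that of Akr1c13 by 3.51 and below that of Akr1c19 by 1.91. The sex effect of Akr1c19 was below that of Akr1c21 by 1.69 and below that of Akr1c13 by 1.61. Akr1c13 and Akr1c21, the pair higher in males, differed by -0.08 (exact permutation adjusted p = 0.550).

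Genotype differences were smaller. Over both sexes Akr1c18 was 1.36-fold lower and Akr1c19 1.31-fold higher in Hyp mice than in normal mice. Both passed the limma test, against 1.63% of all probe sets, while Akr1c13 and Akr1c21 did not. Both calls lay close to the threshold: leaving out any 1 of 16 of the 24 pools ended the Akr1c18 call (difference between -0.52 and -0.38), and the same number ended the Akr1c19 call (between 0.33 and 0.44).

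For Akr1c18 the Hyp minus normal difference was -0.45 ± 0.11 on the log2 scale (SE, limma adjusted p = 0.0361). In males the 6 Hyp pools ran from 309.0 to 382.2 units with a median of 335.75, and the 6 normal pools from 386.7 to 532.2 with a median of 407.6. The ranges did not overlap, as for 1.07% of probe sets, and the gap between the nearest pools was small. In females the 6 Hyp pools ran from 2020.2 to 3760.4 units with a median of 2858.2, and the 6 normal pools from 3115.2 to 4885.5 with a median of 4346.25. These overlapped, with 3 of the 6 Hyp pools inside the normal range. Taken alone, neither sex passed: -0.30 ± 0.15 in males (limma adjusted p = 0.656) and -0.60 ± 0.15 in females (0.0984, or 0.0393 with a trended prior variance).

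Akr1c19 went the other way, with a Hyp minus normal difference of 0.39 ± 0.09 (SE, limma adjusted p = 0.0344). The 6 Hyp male pools ran from 487.1 to 654.8 units with a median of 547.5, against 312.3 to 595.6 with a median of 418.4 in normal males. Hyp females ran from 1111.2 to 1489.7 units with a median of 1253.7, against 946.3 to 1125.7 with a median of 996.9 in normal females. Ranges overlapped in both sexes, in females by 1 pool on each side. The differences were 0.42 ± 0.13 in males (limma adjusted p = 0.198, or 0.0463 with a trended prior variance) and 0.35 ± 0.13 in females (0.389), and neither passed alone.

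For Akr1c13, Hyp males on low phosphate had 238.8, 271.1 and 229.6 units, against 151.2, 198.6 and 174.9 in normal males on low phosphate. Hyp males on control diet had 321.5, 353.0 and 372.2 units, against 243.4, 219.3 and 232.5 in normal males on control diet. All Hyp male pools were above all normal male pools in both diets, as for 1.39% of probe sets. In males the difference was 0.54 ± 0.13 (SE, limma adjusted p = 0.0508), at the edge of the threshold, and it passed under 4 of the 9 alternative settings (limma adjusted p between 0.0291 and 0.0427). In females it was 0.08 ± 0.13 (0.913). The difference of these differences, genotype by sex, was 0.47 ± 0.18 and did not pass (limma adjusted p = 0.736). Over both sexes the value was 0.31 ± 0.09 (limma adjusted p = 0.110). Akr1c21 had -0.16 ± 0.06 (0.211). No member passed in males alone or in females alone, where 0.884% and 0.559% of probe sets did.

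Between paralogs, 5 of 6 pairs differed in their genotype effect. The Hyp minus normal effect of Akr1c18 was below that of Akr1c19 by 0.83, below that of Akr1c13 by 0.76 and below that of Akr1c21 by 0.29 on the log2 scale (exact permutation adjusted p = 6.43e-05, 4.95e-04 and 0.0202). The effects of Akr1c19 and Akr1c13 were above that of Akr1c21 by 0.55 and 0.47 (exact permutation adjusted p = 8.44e-05 and 0.00123). Akr1c13 and Akr1c19 differed by -0.07 (0.611).

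Akr1c13 was the 1 member that passed for diet. It was 1.47-fold lower in mice on low phosphate than on control diet, and Akr1c18, Akr1c19 and Akr1c21 did not pass. That is 1 of 4 members, against 0.666% of all probe sets.

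In males, Akr1c13 ran from 151.2 to 271.1 units in the 6 low phosphate pools, with a median of 214.1, and from 219.3 to 372.2 in the 6 control pools, with a median of 282.45. In females it ran from 117.9 to 190.7 units on low phosphate, with a median of 149.95, and from 173.2 to 309.6 on control diet, with a median of 237.55. Pooled over genotype the ranges overlapped in both sexes, in females by 1 control pool of normal mice at 173.2 units, which lay apart from the others of its group at 309.6 and 261.1. Within each genotype and sex, by contrast, all 3 low phosphate pools were below all 3 control pools. That order held in all 4 strata for 0.0788% of probe sets, 22 of 27926. Hyp females had 164.5, 190.7 and 135.4 units on low phosphate, against 282.2, 214.0 and 201.2 on control diet. Normal females had 145.1, 117.9 and 154.8 units on low phosphate, against 309.6, 173.2 and 261.1 on control diet. The log2 difference was -0.56 ± 0.09 (SE, limma adjusted p = 0.00320), and it stayed between -0.62 and -0.51 with any 1 pool left out.

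In females alone the diet difference of Akr1c13 was -0.65 ± 0.13 (limma adjusted p = 0.0387, against 0.201% of probe sets passing), and in males it was -0.46 ± 0.13 (0.254, against 0.283%). It was -0.50 ± 0.13 in Hyp mice (0.236, against 0.140%) and -0.61 ± 0.13 in normal mice (0.0418, against 0.390%). Whether the diet effect differed by sex or genotype did not pass a test (diet by sex 0.20, genotype by diet 0.10, limma adjusted p = 0.936 and 0.975). The calls in females and in normal mice were lost without any 1 of 18 and any 1 of 19 of the 24 pools. The call in females was also lost under 2 of the 9 alternative settings (limma adjusted p = 0.0511 with a common median and 0.106 with no filter), and that in normal mice under 4 of them (0.0513 to 0.114).

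The other members had diet differences of 0.19 ± 0.11 for Akr1c18 (limma adjusted p = 0.622), -0.07 ± 0.09 for Akr1c19 (0.901) and -0.04 ± 0.06 for Akr1c21 (0.912). The diet effect of Akr1c13 was below that of Akr1c18 by 0.75, below that of Akr1c21 by 0.52 and below that of Akr1c19 by 0.49 (exact permutation adjusted p = 2.75e-04, 6.43e-05 and 0.00459). No pair among the other 3 members passed (0.26, 0.23 and -0.03, exact permutation adjusted p = 0.0774, 0.0774 and 0.806). None of the 16 interactions of the 4 members passed in the limma fit, and 1 had an unadjusted p under 0.05. Over all probe sets, 0.0143% passed for genotype by diet and 0.0501% for genotype by sex.

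**Figure D3:**
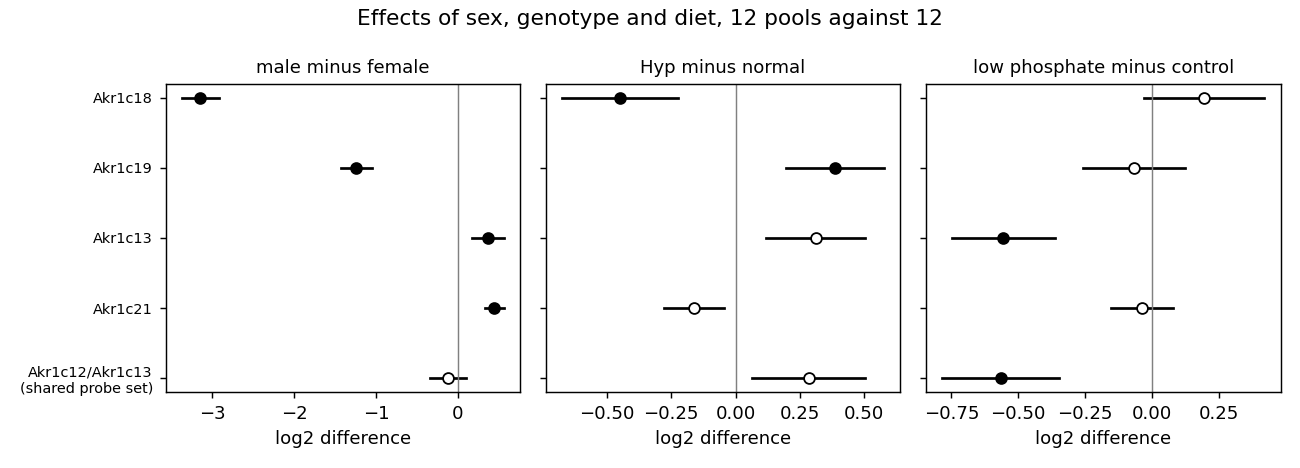
Log2 differences of the 4 members and of the probe set shared by Akr1c12 and Akr1c13, 12 pools against 12, with 95% confidence intervals; filled circles passed the limma threshold. For sex 4 members are filled, for genotype Akr1c18 at -0.45 and Akr1c19 at 0.39, and for diet Akr1c13 at -0.56 and the shared probe set at -0.57.

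The shared probe set gave a second view of Akr1c13, although it cannot be split from Akr1c12. It was lower on low phosphate too, with a difference of -0.57 ± 0.11 (SE, limma adjusted p = 0.00876). Signals ran from 248.8 to 517.5 units with a median of 346.5 in the 12 low phosphate pools and from 336.5 to 694.4 with a median of 559.4 in the 12 control pools. For sex it did not pass: male pools ran from 248.8 to 676.8 units and female pools from 318.1 to 694.4, with a difference of -0.12 ± 0.11 (0.534). In normal mice on control diet, males had 415.9, 378.7 and 336.5 units, against 694.0, 420.5 and 694.4 in females. All male pools of that stratum were below all female pools, and the difference of -0.64 ± 0.21 did not pass (limma adjusted p = 0.113). The share of all probe sets with that order in this stratum was not counted.

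In Hyp males the shared probe set had 389.7, 517.5 and 340.7 units on low phosphate and 676.8, 529.6 and 676.6 on control diet, against 263.7, 352.3 and 248.8 on low phosphate and 415.9, 378.7 and 336.5 on control diet in normal males. Hyp male pools were higher within each diet, except that the lowest on low phosphate (340.7) lay within the normal range. The Hyp minus normal difference in males was 0.63 ± 0.15 (limma adjusted p = 0.0480), with 0.884% of probe sets passing. That call was lost under 3 of the 9 alternative settings and without any 1 of 16 pools. In females it was -0.06 ± 0.15 (0.951), and genotype by sex was 0.69 ± 0.21 (limma adjusted p = 0.579). Akr1c12's own probe set was above the array median on 1 of 24 arrays, ran from 17.5 to 106.0 units in males and from 92.5 to 259.6 in females, and was not tested. The share of Akr1c12 in the shared signal was not tested.

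**Figure D4:**
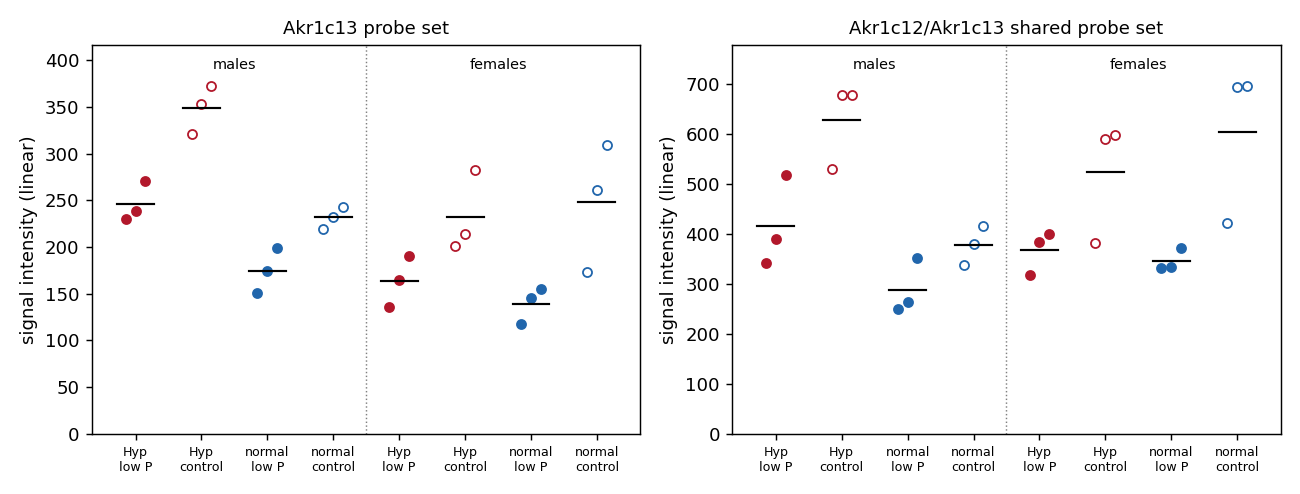
Signal intensity (linear, from 0) of the Akr1c13 probe set and of the probe set shared by Akr1c12 and Akr1c13 in 24 pools, with colours and bars as in the plot of the 4 members. Both are lower on low phosphate; in normal mice on control diet the Akr1c13 circles of males (219.3 to 243.4) lie within the female range, while the shared probe set is lower in all 3 male pools.

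Genes with the most similar pattern over the 24 pools were ranked for members that varied by at least 1 on the log2 scale, by the root mean square gap between mean-centred log2 signals. The pools share sex and array, and 12822 genes were ranked. For Akr1c18 the first was Slc22a29, an organic anion transporter gene, with a gap of 0.297, followed by Cbr1, a carbonyl reductase, with 0.469 and the acyl-CoA thioesterase Acot7 with 0.480, where the median over all genes was 1.62. Their male minus female differences were -2.94, -2.64 and -2.38 on the log2 scale. For Akr1c19 the nearest were the desmosomal cadherin Dsg2 with 0.272, the kynurenine aminotransferase Kyat3 with 0.277 and the fatty acid elongase Elovl6 with 0.280 (median 0.719). For Akr1c13 they were Fcgr2b, an Fc receptor, with 0.263, Fahd2a with 0.273 and the cytochrome P450 Cyp2j11 with 0.275 (median 0.534). With quantile normalization 1 of the 3 genes named for Akr1c19 was still among its nearest 3, and likewise 1 of the 3 for Akr1c13. Akr1c21 varied by 0.65 in all and was not ranked.

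Other aldo-keto reductases and steroid enzymes were counted from lists, with 1 probe set per gene. Of 14 other aldo-keto reductases, 7 were kept, and for sex 2 rose in males, 1 fell and 4 did not pass. Akr1a1 did not pass on the probe set used, with means of 22978 units in male pools and 21255 in female pools. Its other kept probe sets had 18003 and 15820, 15457 and 13487, and 10815.5 and 9353, and are not part of the count. Akr1c14, the neighbour known as a hydroxysteroid dehydrogenase, had a median of 1846.55 units in male pools and 1228.3 in female pools and was higher in males by 0.66 ± 0.10 (SE, limma adjusted p = 1.33e-04). The aldehyde reductase Akr7a5 was higher by 0.27 ± 0.09 (0.0376), and Akr1b10 was lower, at -0.39 ± 0.10 (0.0140), on a probe set above the median on 4 of 24 arrays. The other kept Akr1b10 probe set, above it on all 24, had means of 497 units in male pools and 507 in female pools and did not pass (-0.04 ± 0.12, limma adjusted p = 0.889). The median of the 7 was 0.11, beside -0.05 over all probe sets. Under both other scalings and with a filter of 12 arrays the Akr1b10 call was lost, and 3 genes were called higher with a common median and 1 with quantile normalization. Leaving out 1 pool at a time left 1 gene called higher in 12 of 24 cases, and with no filter on low signals 1 was called higher and 3 lower. None of the 7 passed for genotype or for diet in limma, where 0 and 1 had an unadjusted p under 0.05.

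Of 30 genes of steroid hormone metabolism, 15 were kept, of which 6 were higher and 3 lower in males. Cyp7b1, which hydroxylates oxysterols and neurosteroids, was higher by 5.54 ± 0.11 on the log2 scale. Its other kept probe set was higher by 5.32 ± 0.13 and was above the array median on only 12 arrays. Whether the female signals of Cyp7b1 lay near background was not tested. The hydroxysteroid dehydrogenases Hsd17b11 and Hsd17b2 were higher by 1.46 ± 0.06 and 1.37 ± 0.10, and Hsd3b2 by 1.38 ± 0.11. Hsd11b1, which regenerates active glucocorticoid, was higher by 0.89 ± 0.08, while Hsd11b2, which inactivates it and shields the mineralocorticoid receptor, was lower (-0.35 ± 0.10). Hsd17b14 had -0.97 ± 0.12. All these passed the limma test (adjusted p at most 0.0165), and the list's median was 0.11. With arrays scaled to a common median, 1 gene of the list was called lower instead of 3. For genotype 1 of the 15 was higher in Hyp mice when both sexes were averaged, Cyp7b1 by 0.67 ± 0.11, while its other kept probe set had 0.52 ± 0.13 (limma adjusted p = 0.0504). That average takes in the female pools, whose nearness to background was not tested. Taken by sex, 1 of the 15 was higher and 2 were lower in Hyp males, and 0 passed in females. For diet none passed, although 5 had an unadjusted p under 0.05 in limma and 1 was called higher under 4 of the 9 alternative settings.

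**Figure D5:**
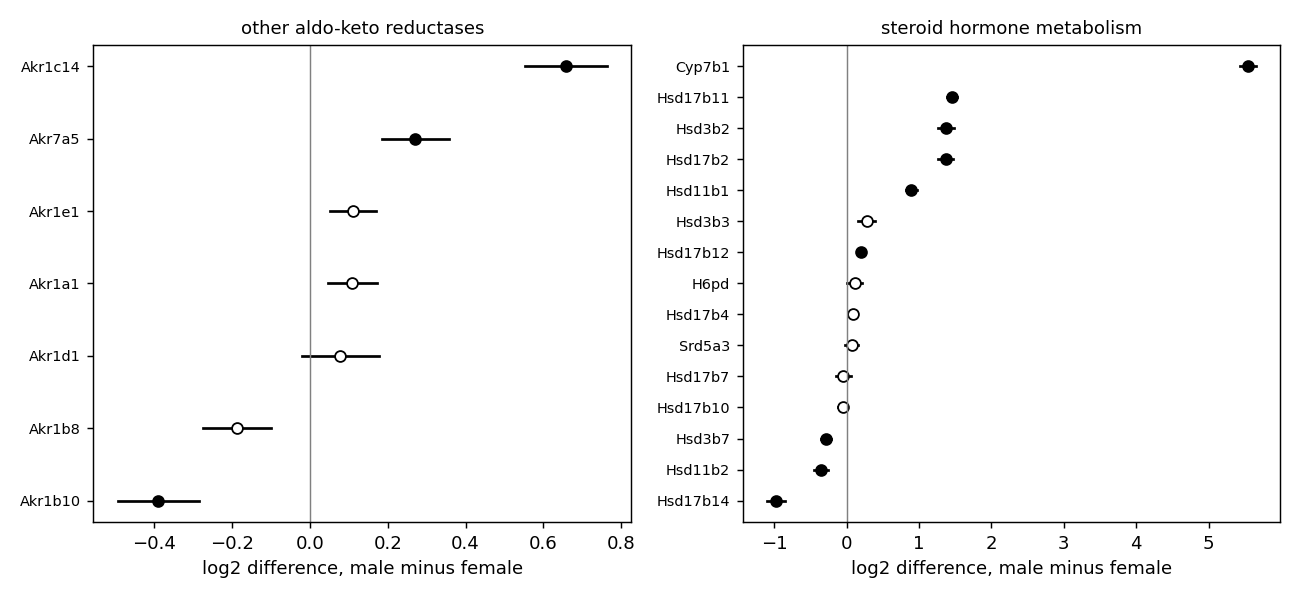
Male minus female differences in log2 signal for the 7 kept other aldo-keto reductases and the 15 kept genes of steroid hormone metabolism, 12 pools against 12, with bars of 1 standard error; filled circles passed the limma threshold. Akr1c14 lies highest in the first panel at 0.66 and Cyp7b1 in the second at 5.54.

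Among 8 kept steroid and pituitary hormone receptor genes, 1 was higher in males, the oestrogen receptor Esr1 (0.63 ± 0.10), and 2 were lower, Pgrmc1 (-0.40 ± 0.06) and the mineralocorticoid receptor Nr3c2 (-0.39 ± 0.12). The count lower in males was 1 under 4 of the 9 alternative settings and without any 1 of 13 pools, and with no filter none was higher. None passed for genotype or diet in limma, with 3 and 1 at an unadjusted p under 0.05, but 2 were called higher in Hyp mice with quantile normalization and with a trended prior variance. Of 5 kidney genes known to respond to androgen, 4 were higher in males, among them Slco1a1 (5.70 ± 0.30), Cyp4b1 (2.99 ± 0.10) and Odc1 (1.25 ± 0.06), while Kap had -0.07 ± 0.08. The other kept Slco1a1 probe set was higher by 6.89 ± 0.29 and was above the array median on only 12 arrays. Whether the female signals of Slco1a1 lay near background was not tested. For diet 2 of the 5 were lower on low phosphate, Cyp4b1 (-0.76 ± 0.10) and Odc1 (-0.34 ± 0.06). For genotype Cyp4b1 was higher in Hyp mice when both sexes were averaged (1.53 ± 0.10). Taken by sex, 1 of the 5 genes was higher in Hyp females and 0 in Hyp males. For genotype by sex 1 of the 5 passed, with the lower Hyp minus normal difference in males. Of 12 kept NRF2 and glutathione genes, which include carbonyl reductases, 2 were higher and 5 lower in males, with Cbr1 at -2.64 ± 0.06, Gsta4 at -2.03 ± 0.08 and Gsta2 at -1.13 ± 0.08. The 2 higher, Gclm (0.39) and Txnrd1 (0.21), had other kept probe sets that did not pass. Gclm had 0.02 there (limma adjusted p = 0.934), and Txnrd1 had 0.24 and 0.08 (0.146 and 0.818). The median sex differences of these lists were -0.12 for the receptors, 1.25 for the androgen-responsive genes and -0.17 for the NRF2 and glutathione genes. Gsta2 was the 1 that passed for diet (-0.62 ± 0.08), and none passed for genotype in limma, with 4 at an unadjusted p under 0.05.

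Some markers of tubule segments passed for sex or genotype, in both directions, and for diet only convoluted tubule genes did. Over all probe sets 14.6% passed for sex, 1.63% for genotype and 0.666% for diet. Of 8 straight proximal tubule genes 5 were higher and 2 lower in males, and 3 were higher in Hyp mice when both sexes were averaged. None passed for diet (2 at an unadjusted p under 0.05 in limma). Taken by sex, 4 of the 8 were higher in Hyp males and 0 in Hyp females, with median differences of 0.33 and 0.13. For genotype by sex 0 of the 8 passed. Of the 3 higher in Hyp mice, Slc5a1 (0.35) and Cyp7b1 (0.67) had another kept probe set that did not pass. Those were above the array median on 21 and 12 arrays and had 0.08 and 0.52 (limma adjusted p = 0.913 and 0.0504). Of 7 convoluted proximal tubule genes 2 were higher and 2 lower in males, 1 was higher and 5 lower in Hyp mice, and 3 were higher and 1 lower on low phosphate. The gene lower on low phosphate, Slc22a6 at -0.23, was not called with a common median, with no filter or without any 1 of 19 of the 24 pools. With a common median 1 convoluted tubule gene was lower in males and 3 in Hyp mice. Among the 7 kidney markers 1 was higher and 3 were lower in males, 1 was higher and 1 lower in Hyp mice (0 lower with a common median), and none passed for diet (3 at an unadjusted p under 0.05). Their median sex differences were 0.66 for the straight tubule, 0.05 for the convoluted tubule and -0.20 for the kidney markers. The part of segment make-up in the Akr1c differences was not tested.

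Fat markers were lower in males. All 3 kept genes passed: Retn (-0.52 ± 0.09), Adipoq (-0.63 ± 0.16) and Fabp4 (-0.37 ± 0.10). The other kept Fabp4 probe set, above the median on all 24 arrays, had -0.36 ± 0.14 and did not pass (limma adjusted p = 0.0847). The summed signal over 5 genes ran from 1448.1 to 2393.1 units in male pools and from 2019.4 to 2997.4 in female pools. Of the 5 genes, 2 were never above the array median. Of 12 adrenal genes, 5 were never above the median on any probe set. The defining gene Cyp11a1 was never above it on its 430A probe set (5.5 to 37.5 units) and was above it on 17 of 24 arrays on its kept 430B probe set (17.5 to 108.3 units), where sex did not pass (0.03 ± 0.23, limma adjusted p = 0.950). The summed adrenal signal ran from 3857.4 to 5184.6 in male pools and from 3676.5 to 4647.0 in female pools, most of it from Fdx1, which is also a gene of other tissues and was higher in males by 0.21 ± 0.06, a call lost with quantile normalization, with no filter and without any 1 of 9 pools. No marker was at 0 on any array. By genotype and by diet none of the kept fat or adrenal genes passed, and 0 had an unadjusted p under 0.05 in limma. The part of fat in the sex differences of the Akr1c genes was not tested.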

How the data were processed

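The submitters' labels describe 24 pools of kidney RNA, each hybridised to a 430A and a 430B chip (48 arrays in 8 groups). The deposited values are signal intensities on a linear scale, and the submitters' processing notes name GCOS 1.2 as the software. Any scaling between arrays is not given in the sources used here. Arrays carry no read depth, and the number of pools limits precision.

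From the deposited intensities, values were floored at 1 and log2 values were taken. Control probe sets were left out, and the 100 others present on both chips were read from 430A. Probe sets above the array median on at least 3 of 24 arrays were kept. Each chip was fitted with limma 3.58.1 in R 4.3.3 (8 group means, eBayes), and p-values of both chips were adjusted together (Benjamini-Hochberg, threshold 0.05). The fit was tested on simulated data: for the sex effect over 27926 probe sets it recovered 40.5% of 200 genes changed by 0.5 and 83.0% of those changed by 1 on the log2 scale. Paralogs were compared by exact permutation of pools within strata, two-sided. Promoter windows came from RefSeq (GRCm38.p6) and were aligned with Biopython 1.88 in Python 3.11.15. Figures used matplotlib 3.10.9.

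Of the 45037 probe sets, 34945 had 1 gene symbol, 932 several and 9160 none. Named genes were the 4 members with every contrast, the 3 genes most like each member that varied by at least 1 on the log2 scale, and list genes that passed. The members and the lists were chosen with earlier results of these data known. Alternatives were a pseudocount of 64, no filter or one of 12 arrays, scaling to a common median, quantile normalization, 1 probe set per gene, adjustment within each chip, a trended prior variance, the replicate number as a block, and leaving out each pool.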

Additional observations from a re-analysis of the deposited data

How the results depend on the processing

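The 4 sex calls and the diet call of Akr1c13 kept their direction and their side of the threshold under all 9 alternative settings and without any single pool. Of 819 tested values under these settings, 786 kept both. Among the 9, only the pseudocount, the common median and quantile normalization alter the log2 difference itself. Direction could not turn under the others, which change only the adjusted p. The genotype calls did not. Akr1c18 missed the threshold with a common median (-0.43, adjusted p = 0.0866) and with no filter (-0.45, 0.0945), and Akr1c19 did so with adjustment within each chip (0.39, 0.101) and with no filter (0.39, 0.0931). The count of 2 genotype calls became 1 within each chip, 1 with a common median and 0 with no filter, where more features are tested; the cause of the common median's change was not tested. Leaving out 1 pool at a time gave 0 to 3 genotype calls, 9 to 15 calls within strata (13 with all pools) and 13 to 15 paralog differences (an alternative chosen after seeing the data, 13 with all pools). The Akr1c13 genotype difference ran from 0.25 to 0.36 and passed without 1 pool, that of Akr1c18 from -0.52 to -0.38 and that of Akr1c19 from 0.33 to 0.44.

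Values that turned sign were none of them past the threshold, and the cause was not tested. With a common median they were Akr1c13 for sex in normal mice on control diet (0.049), Akr1c19 minus Akr1c21 for diet (0.00503), Akr1c19 for diet in Hyp mice (-0.071) and genotype by diet (-0.036), Akr1c21 for diet in Hyp mice (-4.51e-04) and the shared probe set for genotype by diet (-0.020). With quantile normalization they were Akr1c13 for sex in normal mice on control diet (0.063), Akr1c13 minus Akr1c21 for sex (0.038), Akr1c19 minus Akr1c21 for diet (0.028), and Akr1c21 for diet in males (-0.00447) and for the three-way term (-0.066). Without single pools, sign turned for the shared probe set in genotype by diet (-0.069 to 0.16), genotype in females (-0.18 to 0.049) and sex in Hyp mice on low phosphate (-0.00351 to 0.30), for Akr1c13 in genotype in females (-0.040 to 0.17) and sex in normal mice on control diet (-0.30 to 0.12), for Akr1c18 in genotype by diet (-0.16 to 0.066) and the three-way term (-0.13 to 0.32), for Akr1c19 in diet in Hyp mice (-0.013 to 0.040) and genotype by sex (-0.032 to 0.18), for Akr1c19 minus Akr1c21 in diet (-0.11 to 0.028), and for Akr1c21 in diet in males (-0.00315 to 0.077) and the three-way term (-0.092 to 0.080).

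Of all probe sets called for sex, 40.7% were higher in males as deposited, 66.6% with a common median and 48.8% with quantile normalization. Scaling also moved counts of list genes lower in males: other aldo-keto reductases had 0 with either scaling (1 as deposited), steroid metabolism 1 with a common median (3) and receptors 1 with either (2). With a common median, convoluted tubule genes lower in Hyp mice numbered 3 (5) and kidney markers 0 (1). Without single pools, 1 to 2 aldo-keto reductases were higher and 1 to 2 receptors lower. Some list genes called for a main effect had another kept probe set that did not pass. For genotype these were 3 of 4 convoluted tubule genes with another probe set, 2 of 2 straight tubule genes and 1 of 1 steroid gene. For sex they were 2 of 2 NRF2 and glutathione genes, 1 of 1 fat gene and 1 of 2 kidney markers. They were also 1 of 2 aldo-keto reductases and 1 of 4 steroid genes for sex, and 1 of 3 convoluted tubule genes for diet. None of the lists had one called the opposite way. Diet calls over all probe sets numbered 186, and 118 with no filter. Deviations from the group means in same-numbered pools of different groups correlated from -0.04 to 0.09 (median 0.029, 84 pairs). Those in different-numbered pools correlated from -0.09 to 0.08 (median -0.014, 168 pairs), and none in either set was above 0.1. Deviations sum to 0 within each group, so the second set is tied to the first and is no independent comparison. Whether the numbers pair the samples cannot be told from these values. With the replicate block the calls were 4519 for sex, 546 for genotype and 255 for diet (4085, 454 and 186 without). No call of a member changed with the block, and Akr1c13 for diet was at -0.56 (limma adjusted p = 0.00491). Signal over background limits Akr1c13, which was above the array median on 16 of 24 arrays.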
